A study of Mus musculus with 12 samples.

Results

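The mitochondrial ribosomal proteins were followed in RNA-seq of mouse mammary glands and mammary tumors. Members were all gene names that begin with Mrps or Mrpl directly followed by a digit, the names given to proteins of the small and the large mitochondrial subunit. This rule found 74 genes, 27 named Mrps and 47 named Mrpl, among the 23301 gene names common to all samples. Another 3 names of the family, Mrps6, Mrps23 and Mrpl53, stood only in rows joined with neighbouring genes and were left out. All 74 members reached at least 1 FPKM (fragments of a gene scaled to its length and to the mapped fragments of the library, so a level per length) in at least 3 of 6 samples in both comparisons, so none was lost to the filter on low values.

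Normal tissue came from wild-type FVB females, with abdominal and inguinal glands of 3 mice pooled in each of 3 replicates. Tumor tissue came from the thoracic gland of untreated MMTV-PyVT females, a transgenic FVB/N line, with 1 mouse in each of 3 replicates. In these mice the promoter of the mouse mammary tumor virus drives the polyomavirus middle T antigen in mammary epithelium. In a separate set, MMTV-PyVT females were injected with C646, an inhibitor of the histone acetyltransferase p300, or with its solvent DMSO, and the biggest tumor of each of 3 mice per group was sequenced. The labels give 1 mg/kg for both injections, and all mice were 12 weeks old. Between Normal and Tumor the genotype, the tissue, the position of the gland and the pooling of mice all changed at once and cannot be told apart.

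Mitochondria hold their own ribosomes, which translate only the few messages encoded by mitochondrial DNA, all of them core subunits of the respiratory chain and ATP synthase. The RNA of these ribosomes comes from the mitochondrial genome, while every one of their proteins is encoded in the nucleus, made on cytosolic ribosomes and imported. Many of the proteins descend from bacterial ribosomal proteins, the others were added in the mitochondrial lineage, and their genes are scattered over many chromosomes. The mammary gland is mostly fat with a thin epithelium, and tumors of this model are dense sheets of dividing epithelial cells.

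The 74 members were on balance higher in Tumor than in Normal. The median log2 fold change was 0.29 over the members, against -0.02 over all 13031 genes tested. With limma and an adjusted p under 0.05, 28 members were higher and 4 were lower. Across all genes tested the same rule called 28.8% higher and 31.7% lower, so the members' share of higher calls, 37.8%, was near the background, while their share of lower calls, 5.41%, was far under it. Members whose 3 Tumor values all lay above all 3 Normal values numbered 30, and 5 lay wholly below, where the background was 33.1% and 35.8%. The plot of the 74 fold changes shows a continuous slope from Mrps36 to Mrps12 with no gap between called and uncalled members.

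**Figure D1:**
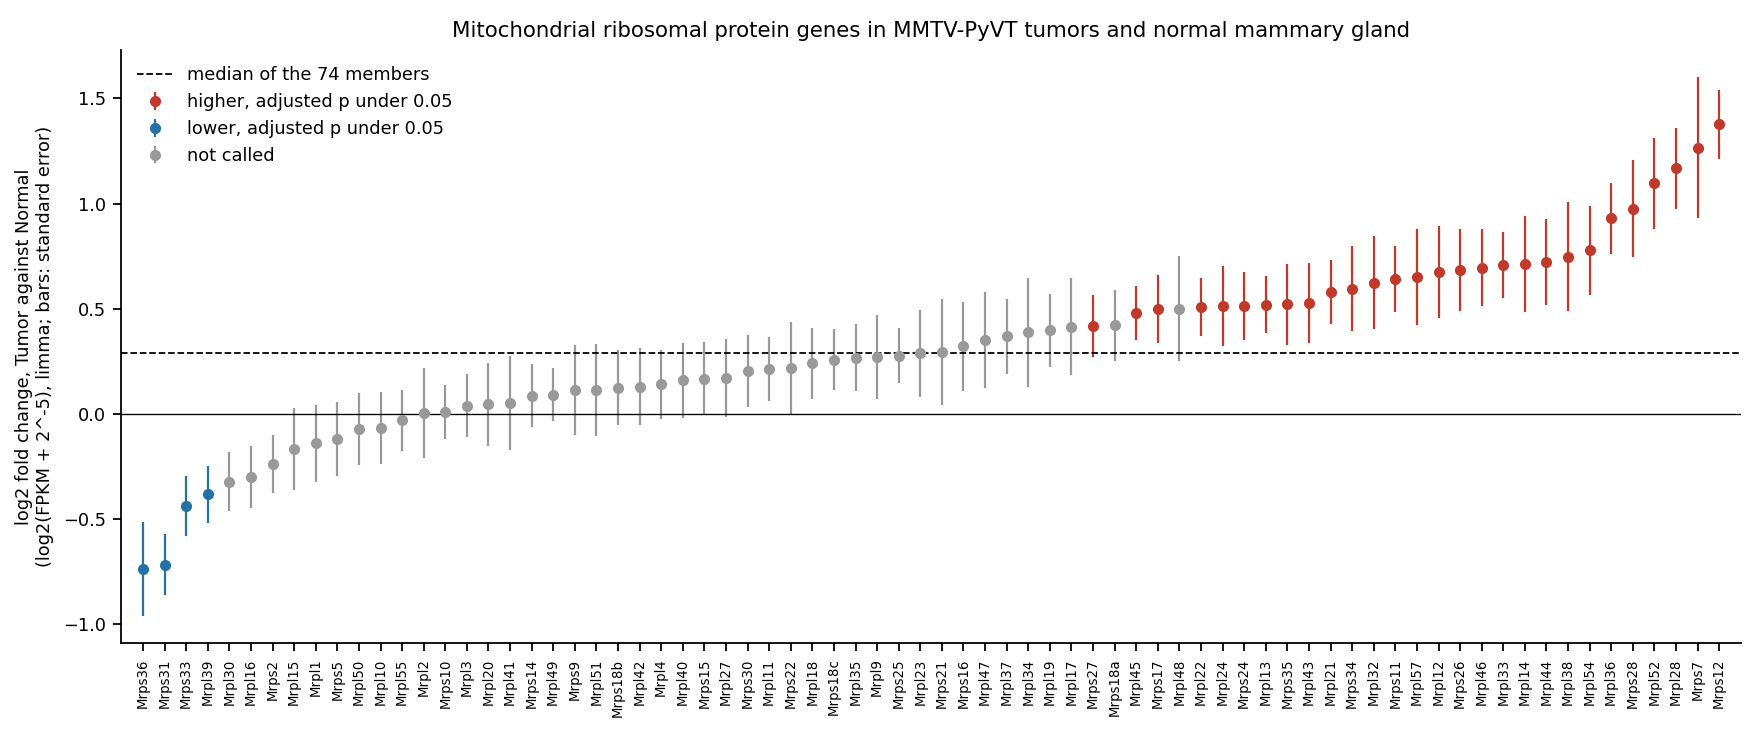
Log2 fold change of each of the 74 members in Tumor against Normal (y axis; bars are the standard error from limma, n = 3 against 3), ordered from the lowest to the highest. Red points are the 28 members called higher, blue points the 4 called lower, grey points the rest, and the dashed line is the members' median of 0.29.

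Mrps12, the homologue of the bacterial protein at the decoding centre, had the largest rise. It measured 37.3, 38.5 and 30.3 FPKM in Normal and 108.3, 82.3 and 85.6 FPKM in Tumor. The lowest tumor lay well above the highest normal sample, and the log2 fold change was 1.38 ± 0.16 (SE; limma adjusted p = 0.00037). Mrpl28, a bacterial-type protein of the large subunit, read 53.0, 71.4 and 47.8 FPKM in Normal and 148.6, 124.3 and 111.4 FPKM in Tumor (log2 fold change 1.17 ± 0.19, limma adjusted p = 0.0016). Mrpl52, a large-subunit protein found only in mitochondria, read 150.0, 165.4 and 118.2 FPKM in Normal and 397.7, 273.0 and 264.0 FPKM in Tumor (log2 fold change 1.10 ± 0.22, limma adjusted p = 0.0036). In none of the 3 genes did a tumor fall to the level of a normal sample, and Tumor replicate 1 was the highest in each.

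Mrps28, a small-subunit protein, was 1.97-fold higher, with 45.8, 58.5 and 45.8 FPKM in Normal and 128.9, 101.1 and 71.9 FPKM in Tumor (limma adjusted p = 0.0081). Mrpl36, the counterpart of the smallest bacterial ribosomal protein, was 1.91-fold higher and read 45.6, 60.9 and 45.4 FPKM in Normal and 96.8, 106.9 and 84.4 FPKM in Tumor (limma adjusted p = 0.0025). One of its exons overlaps an annotated exon of Ndufs6, and since the library kit did not keep the strand, reads of both genes cannot be told apart there. The same limit holds for other members called higher. Among them are Mrpl43, which overlaps Twnk, and Mrpl46 and Mrps11, which overlap each other. Mrps12, Mrpl28, Mrpl52, Mrps28 and Mrpl54 had no such overlap. Mrpl54 was 1.72-fold higher (96.2 ± 19.1 FPKM in Normal and 165.0 ± 33.2 in Tumor, mean ± SD, n = 3; limma adjusted p = 0.015). The other members called higher, apart from Mrps7 and Mrpl38, rose between 1.33-fold for Mrps27 and 1.65-fold for Mrpl44, the large-subunit protein with an RNase III fold.

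Mrps36 and Mrps31 were lower in the tumors. Mrps36 read 28.9, 45.9 and 49.1 FPKM in Normal and 26.5, 25.2 and 21.0 FPKM in Tumor (log2 fold change -0.74 ± 0.22, limma adjusted p = 0.023). The groups did not overlap, although Normal replicate 1 lay close to the tumors. Mrps36 was named as a mitoribosomal protein and has since been placed in the 2-oxoglutarate dehydrogenase complex of the citric acid cycle. Mrps31, a small-subunit protein with no bacterial counterpart, read 16.6, 18.8 and 19.3 FPKM in Normal and 10.6, 12.5 and 10.3 FPKM in Tumor (log2 fold change -0.72 ± 0.14, limma adjusted p = 0.0039). Mrps33 fell to 0.74-fold and Mrpl39, a large-subunit protein related to threonyl-tRNA synthetase, to 0.77-fold (limma adjusted p = 0.033 and 0.043). Mrps31 kept its call whichever sample was left out, while without Normal replicate 2, Normal replicate 3 or Tumor replicate 3 it was the only member called lower. Mrpl30 lay wholly below Normal, at 110.8 to 120.1 against 124.4 to 157.9 FPKM, but did not pass the test (limma adjusted p = 0.085).

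The promoters of 65 of the 74 members were taken from RefSeq on GRCm38.p6 as windows of 300 bases, from 250 before the start to 50 after it. Of the 65, 62 had 1 window and the others had more. Both strands were searched for 4 short motifs that are background knowledge for nuclear genes of mitochondrial proteins: CCGGAAGT, bound by ETS factors such as GABPA; AAGATGGC, bound by YY1; GCATGCGC, the core of the NRF1 site; and CACGTG, the E-box bound by MYC. The motifs do not contain one another. The ETS letters were in 12 members, 18.5%, against 5.69% of 17491 protein-coding genes with a window. The YY1 letters were also in 12 members, 18.5%, against 3.57%. NRF1 letters were in 8 members, 12.3% against 3.93%, and E-boxes in 5 members, 7.69% against 8.91%. At least 1 of the motifs was in 31 of the 65 members, 47.7%, against 19.7% of the protein-coding genes. Among members called higher in Tumor, 12 of 22 with a window held at least 1 (54.5%). Among members not called 18 of 39 did (46.2%), and among the 4 called lower 1 did (25%).

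The windows of Mrps7, of the 3 other members with the largest rise and of the 2 with the largest fall are given 5′ to 3′ on the strand of the gene, with the searched motifs in capitals, since these are the members with the largest values in the results. Mrps7 (chr11:115603890-115604189, plus strand) holds the YY1 letters from position 269, just past the RefSeq start at position 251. The GENCODE start of Mrps7, chr11:115603925, lies further upstream in the same window. Mrps12 (chr7:28741772-28742071, minus strand) holds them on the opposite strand from position 52. Mrpl52 (chr14:54426659-54426958, plus strand) holds the ETS letters on the opposite strand from position 252. Mrpl28 (chr17:26123253-26123552, plus strand), Mrps31 (chr8:22411090-22411389, plus strand) and Mrps36 (chr13:100744610-100744909, minus strand) hold none of the 4.
Mrps7: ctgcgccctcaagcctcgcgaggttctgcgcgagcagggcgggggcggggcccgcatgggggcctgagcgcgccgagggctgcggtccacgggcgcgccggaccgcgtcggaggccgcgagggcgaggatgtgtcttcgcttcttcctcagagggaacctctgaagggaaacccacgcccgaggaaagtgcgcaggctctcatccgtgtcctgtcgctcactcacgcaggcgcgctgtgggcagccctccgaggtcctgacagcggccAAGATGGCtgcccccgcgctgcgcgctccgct
Mrps12: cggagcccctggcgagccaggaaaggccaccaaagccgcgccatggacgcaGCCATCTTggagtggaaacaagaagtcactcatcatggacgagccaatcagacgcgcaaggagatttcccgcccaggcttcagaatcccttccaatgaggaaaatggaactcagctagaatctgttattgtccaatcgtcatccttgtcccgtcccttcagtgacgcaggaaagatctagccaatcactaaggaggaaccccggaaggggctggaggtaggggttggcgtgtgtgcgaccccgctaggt
Mrpl52: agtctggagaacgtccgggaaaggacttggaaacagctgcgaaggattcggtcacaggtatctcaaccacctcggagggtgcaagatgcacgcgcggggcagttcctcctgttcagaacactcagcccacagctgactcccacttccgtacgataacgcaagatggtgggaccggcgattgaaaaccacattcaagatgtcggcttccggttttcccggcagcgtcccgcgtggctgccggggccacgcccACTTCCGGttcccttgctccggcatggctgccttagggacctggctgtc
Mrpl28: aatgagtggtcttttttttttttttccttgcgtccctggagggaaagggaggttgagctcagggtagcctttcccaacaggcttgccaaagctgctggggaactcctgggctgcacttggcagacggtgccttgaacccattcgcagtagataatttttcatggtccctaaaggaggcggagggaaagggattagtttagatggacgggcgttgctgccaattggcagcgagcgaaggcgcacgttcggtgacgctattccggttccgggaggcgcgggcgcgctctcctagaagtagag
Mrps31: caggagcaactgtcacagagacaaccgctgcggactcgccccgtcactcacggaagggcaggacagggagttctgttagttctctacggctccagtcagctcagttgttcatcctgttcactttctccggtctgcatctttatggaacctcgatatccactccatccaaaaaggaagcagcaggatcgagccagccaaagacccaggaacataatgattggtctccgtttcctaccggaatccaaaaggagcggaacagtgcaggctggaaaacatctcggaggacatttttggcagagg
Mrps36: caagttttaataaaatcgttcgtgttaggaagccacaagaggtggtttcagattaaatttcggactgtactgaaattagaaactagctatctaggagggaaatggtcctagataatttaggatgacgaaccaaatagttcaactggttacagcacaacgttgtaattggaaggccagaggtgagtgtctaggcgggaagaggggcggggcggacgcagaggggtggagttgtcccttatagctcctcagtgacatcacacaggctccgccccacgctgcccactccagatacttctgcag

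By place in the ribosome, all 4 structural groups had a median above 0. Of 15 small-subunit proteins with bacterial homologues 6 rose and 0 fell, with a median log2 fold change of 0.30. Of 9 small-subunit proteins specific to mitochondria 4 rose and 2 fell, with a median of 0.28. Of 30 large-subunit proteins with bacterial homologues 10 rose and 0 fell, with a median of 0.28, and of 19 specific to mitochondria 8 rose and 1 fell, with a median of 0.42. Of the 4 members that fell, 3 were proteins added in the mitochondrial lineage and the other was Mrps36; whether the groups differ in this was not tested. The share called higher was 33.3% to 44.4% by group, beside 28.8% of all genes, and the share called lower 0% to 22.2%, beside 31.7%.

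Some members are partners or paralogs of each other, and differences between their fold changes were not tested. The stalk that recruits translation factors is built from Mrpl10 and Mrpl12. Mrpl12 was 1.60-fold higher in Tumor (168.6 ± 42.9 FPKM in Normal and 266.4 ± 42.4 in Tumor, mean ± SD, n = 3; limma adjusted p = 0.030), while Mrpl10 read 67.2 ± 9.89 and 64.2 ± 9.73 FPKM and did not pass (limma adjusted p = 0.76). Of the 3 Mrps18 paralogs, Mrps18a, which sits in the large subunit, had the highest log2 fold change at 0.42 ± 0.17, Mrps18c had 0.26 ± 0.15 and Mrps18b 0.13 ± 0.18, none of which passed the threshold. Over Normal and Tumor together the most abundant members were Mrps21, Mrpl52 and Mrpl12, and the least abundant were Mrpl19, Mrpl1 and Mrpl35. Mrpl19 and Mrpl1 were the lowest in all 4 groups, and the order of the others varied by group. Mrps21 averaged 216.4 FPKM in Normal and 274.0 in Tumor, and Mrpl19 averaged 5.35 and 7.05.

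The other 6 proteins of the particle, whose gene names do not follow the rule, gave 2 calls, both higher. That is 33.3% higher and 0% lower, beside 28.8% and 31.7% of all genes. Chchd1, a small-subunit protein, rose 1.76-fold and Gadd45gip1, a large-subunit protein, rose 2.01-fold (limma adjusted p = 0.0031 and 0.0058). Ict1, a peptidyl-tRNA hydrolase built into the large subunit and called Mrpl58 in the annotation, read 61.6, 83.6 and 61.6 FPKM in Normal and 132.2, 71.8 and 197.0 FPKM in Tumor and did not pass (limma adjusted p = 0.070). Dap3, Aurkaip1 and Ptcd3 did not pass either, with log2 fold changes of 0.17, 0.34 and -0.28.

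Of 11 mitochondrial translation factors 0 were called higher and 3 lower, with a median log2 fold change of -0.25. The elongation factor Gfm1 fell to 0.43-fold, from 30.4 ± 6.33 to 13.2 ± 4.32 FPKM, and Taco1, an activator of the translation of a cytochrome oxidase message, to 0.59-fold (limma adjusted p = 0.0051 and 0.0069). Of 24 assembly and rRNA modification factors 7 rose and 6 fell, with Malsu1, which guards the immature large subunit, at 1.63-fold and Wbscr16 at 1.62-fold. Of 16 mitochondrial aminoacyl-tRNA synthetases 1 rose (Lars2, 1.42-fold) and 1 fell (Iars2, 0.51-fold). Of 16 genes for mitochondrial DNA maintenance and RNA synthesis 4 rose and 2 fell, with the helicase Peo1 at 1.70-fold and the transcription factor Tfb2m at 0.44-fold. In the order given, the shares called higher in these 4 lists were 0%, 29.2%, 6.25% and 25%, beside 28.8% of all genes. The shares called lower were 27.3%, 25%, 6.25% and 12.5%, beside 31.7% of all genes.

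The medians of the cytosolic ribosomal proteins and of the respiratory chain lay on either side of the members' median. Of 76 cytosolic ribosomal proteins 68 rose and 0 fell, with a median log2 fold change of 0.97. Of 72 nuclear subunits of oxidative phosphorylation 4 rose and 19 fell, with a median of -0.43. These are 5.56% higher, far under the 28.8% of all genes, and 26.4% lower, somewhat under the 31.7% of all genes. Sdha, the catalytic subunit of succinate dehydrogenase, fell to 0.24-fold, and Atp5g1, a gene for the membrane ring of ATP synthase, rose 4.31-fold (limma adjusted p = 0.00017 and 0.00015). Of 7 regulators of mitochondrial biogenesis 1 rose and 3 fell. Ppargc1b and Ppargc1a, coactivators abundant in brown fat, fell to 0.18-fold and 0.28-fold, Gabpa, the DNA-binding part of an ETS factor, fell to 0.61-fold (limma adjusted p = 0.029) and Myc rose 1.66-fold. The plot of calls by list sets these shares side by side.

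**Figure D2:**
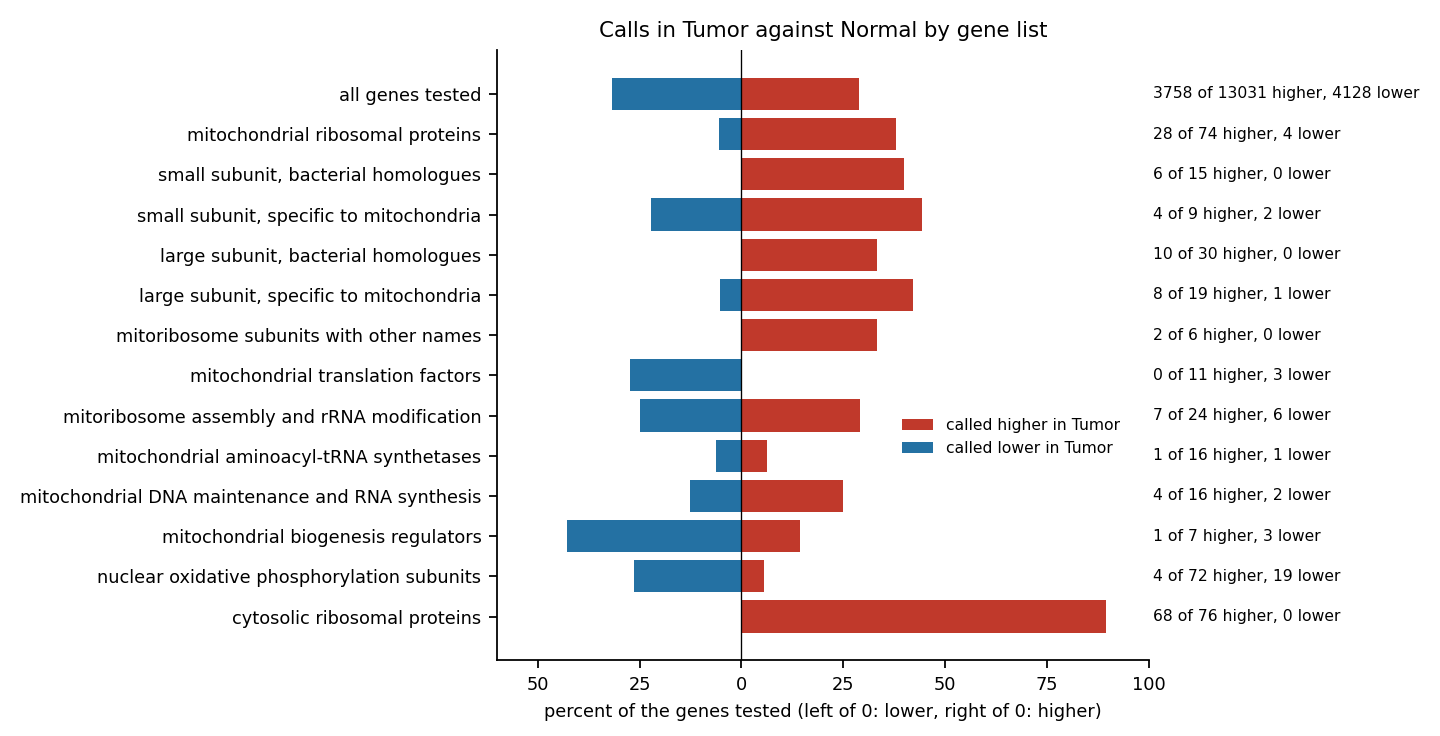
Share of genes called in Tumor against Normal in each list (x axis, percent of the genes tested; red to the right, called higher; blue to the left, called lower; limma adjusted p under 0.05). The mitochondrial ribosomal proteins have 28 higher and 4 lower of 74, cytosolic ribosomal proteins 68 and 0 of 76, and nuclear oxidative phosphorylation subunits 4 and 19 of 72, where 28.8% of all genes were called higher and 31.7% lower.

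Cell types also differed between these tissues. The summed FPKM of 6 white adipocyte markers was 4174 to 5290 in Normal and 20.3 to 263.5 in Tumor, and that of 5 brown adipocyte markers was 2016 to 4591 and 59.2 to 537.5, with all 11 called lower. All 5 skeletal muscle markers were higher, at 8.35 to 65.7 FPKM summed in Normal and 1400 to 3921 in Tumor. Of 7 epithelial markers tested 5 were higher, from 441.2 to 937.4 up to 2667 to 3567 FPKM summed, and all 6 markers of dividing cells were higher. All 6 lymphocyte markers were lower, summing to 247.9 to 318.0 FPKM in Normal and to 0.50 to 0.65 in Tumor, and so were all 4 of macrophages and all 4 of endothelium. Within Tumor, replicate 1 had the highest sums for white fat, brown fat, muscle and epithelium (263.5, 537.5, 3921 and 3567 FPKM). It had the lowest sum for dividing cells, at 94.2 FPKM, and was the tumor in which most members were highest. The part of cell types in the members' differences was not tested, and in such bulk tissue fewer cells of a type and less RNA per cell cannot be told apart.

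The number of calls depended on scaling and on single samples. With FPKM divided by its sum in each sample (TPM), 13 members were higher and 7 lower and the members' median was 0.04, but the median of all genes moved to -0.29, and the gap between both medians was 0.33 in place of 0.31. With quantile normalization 23 were higher and 6 lower and that gap was 0.10. The share of all genes called higher was 20.6% and 32.7% in these fits, against 17.6% and 31.1% of the members, and the share called lower was 37.7% and 28.5%, against 9.46% and 8.11%. The higher calls were 10 without Normal replicate 1, 12 without Normal replicate 3 and 17 without Tumor replicate 1. These are 13.5%, 16.2% and 23.0% of the members, each under the 26.1%, 25.1% and 26.2% of all genes called higher there. Without Normal replicate 2, Tumor replicate 2 or Tumor replicate 3 the members' share was 33.8%, 25.7% or 36.5%. The share of all genes there was 27.1%, 26.6% or 24.9%. The lower calls were 1 without Normal replicate 2, without Normal replicate 3 or without Tumor replicate 3, and 2 without Normal replicate 1 or without Tumor replicate 1, where 21.3% to 33.0% of all genes were called lower.

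Most members were highest in the same sample of their group in Normal, Tumor and DMSO, where that sample also had the highest total FPKM. Their summed level was 3697, 4657 and 3890 FPKM in Normal, with 62 of the 74 members (83.8%) highest in replicate 2, as were 42.8% of all genes tested. It was 6355, 5364 and 4857 FPKM in Tumor, with 45 members (60.8%) highest in replicate 1, as were 45.2% of all genes, and 57 lowest in replicate 3. Groups did not overlap in this sum, which was 0.67% to 0.73% of all FPKM in Normal and 0.78% to 0.81% in Tumor. They did overlap in the members' median level, at 47.45 FPKM in Normal replicate 2 and 44.51 in Tumor replicate 3. Mrps7 alone gave 238.2 FPKM to the sum in Tumor replicate 3, against 72.12 in Normal replicate 2. In the treated tumors the sum was 3678, 3504 and 4658 FPKM in DMSO, with 68 members (91.9%) highest in replicate 3 against 36.8% of all genes. It was 3676, 3635 and 3357 FPKM in C646, with 37, 29 and 8 members highest, so that only DMSO replicate 3 stood apart in this sum. The 2 sets of files were made with different gene tables, and levels are not compared between them.

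**Figure D3:**
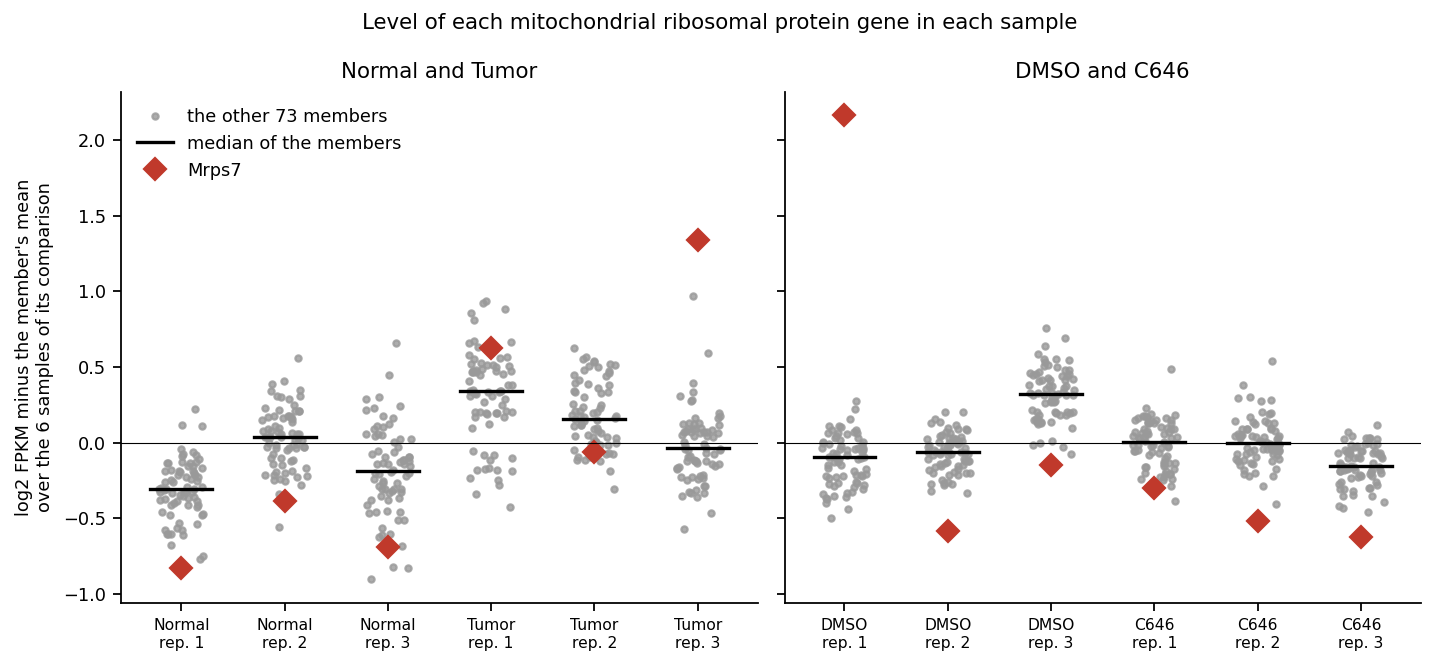
Level of every member in every sample, as log2 FPKM minus the mean of that member over the 6 samples of its comparison (y axis). Grey points are 73 members, black bars the median of all 74 and red diamonds Mrps7, which lies far above the family in DMSO replicate 1 (342.4 FPKM) and Tumor replicate 3 (238.2 FPKM).

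No difference between C646 and DMSO was detectable in the members at this number of samples. With limma, 0 of 74 were called higher or lower, against 0% of all 12083 genes tested in either direction. Not 1 member passed even an unadjusted p of 0.05, which 3.18% of all genes did. The members' median log2 fold change was -0.10 against -0.01 over all genes, and 60 of 74 members had a fold change below 0, where the background was 53.1%. That lean depended on 1 sample: without DMSO replicate 3, in which the family was highest, 26 of 74 were below 0 and the median was 0.04. With TPM scaling 28 were below 0 and the median was 0.02, but the median of all genes moved to 0.11. Cytosolic ribosomal proteins (72 of 75) and nuclear oxidative phosphorylation subunits (69 of 72) had fold changes below 0 in larger shares. DMSO replicate 3 was also the highest sample in their summed FPKM. The cytosolic sums were 78450, 97430 and 145800 in DMSO, and those of oxidative phosphorylation 18210, 16420 and 22080. Shares of these lists without that sample are not given here.

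No member lay wholly above DMSO in the C646 tumors and 6 lay wholly below, where the background was 4.04% above and 4.52% below. Mrpl46, a large-subunit protein, read 30.3, 34.9 and 42.1 FPKM in DMSO and 30.3, 27.8 and 25.3 FPKM in C646, so the highest C646 value lay just under the lowest DMSO value (log2 fold change -0.35 ± 0.16, limma adjusted p = 0.99). Mrpl41 read 12.0, 12.7 and 14.2 FPKM in DMSO and 10.5, 10.2 and 11.2 FPKM in C646. Mrpl43, Mrpl4, Mrpl2 and Mrps16 were the others. Mrps12, the leading member in Tumor, had a log2 fold change of -0.04 ± 0.18. The highest fold changes, of Mrpl35 and Mrps28, were 0.19 ± 0.25 and 0.15 ± 0.17. White adipocyte markers were higher in C646 at an unadjusted p under 0.05 in all 5 tested, with sums of 6.39 to 15.4 FPKM in DMSO and 21.6 to 85.8 in C646, and skeletal muscle markers ranged from 9.88 to 311.4 FPKM over the 6 tumors without separating the groups. Their part in the members' values was not tested.

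Mrps7 was unlike the rest of the family in both sets of tumors. It is the homologue of the bacterial protein that starts assembly of the head of the small subunit, and it lies at chr11:115603925-115608036 on the plus strand. The study showed this locus for its C646-treated tumors, so its value there is no independent evidence. In Normal it read 53.2, 72.1 and 58.5 FPKM and in Tumor 145.6, 90.1 and 238.2 FPKM. The groups did not overlap, but the 3 tumors were spread in both directions. Against the other 2 tumors, Mrps7 was at 2.08-fold in Tumor replicate 3, 0.48-fold in replicate 2 and 0.99-fold in replicate 1. Its log2 fold change of 1.27 ± 0.34 was the second highest of the 74 with the widest standard error (limma adjusted p = 0.014; exact two-sided permutation p = 0.10, the smallest that 3 against 3 samples allow), and it was 0.91 without Tumor replicate 3 (limma adjusted p = 0.021).

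In DMSO Mrps7 read 342.4, 50.9 and 68.9 FPKM and in C646 62.0, 53.4 and 49.6 FPKM. DMSO replicate 1 alone was high, and the other 5 tumors lay between 49.6 and 68.9 FPKM with the groups overlapping. Mrps7 ranked 1 of 74 by level in that tumor and 28, 24, 20, 27 and 25 in the others. The log2 fold change in C646 against DMSO was -0.96 ± 0.66 (limma adjusted p = 0.99; exact two-sided permutation p = 0.30), the lowest of the 74, and it was -0.11 without DMSO replicate 1. When each member in each sample was set against the mean of the other 2 replicates, Mrps7 in DMSO replicate 1, at 5.78-fold, was the largest departure of 888 pairs of member and sample. The other departures upward of more than 2-fold were Mrpl12 in DMSO replicate 3, at 2.1-fold, and Mrps7 in Tumor replicate 3.

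**Figure D4:**
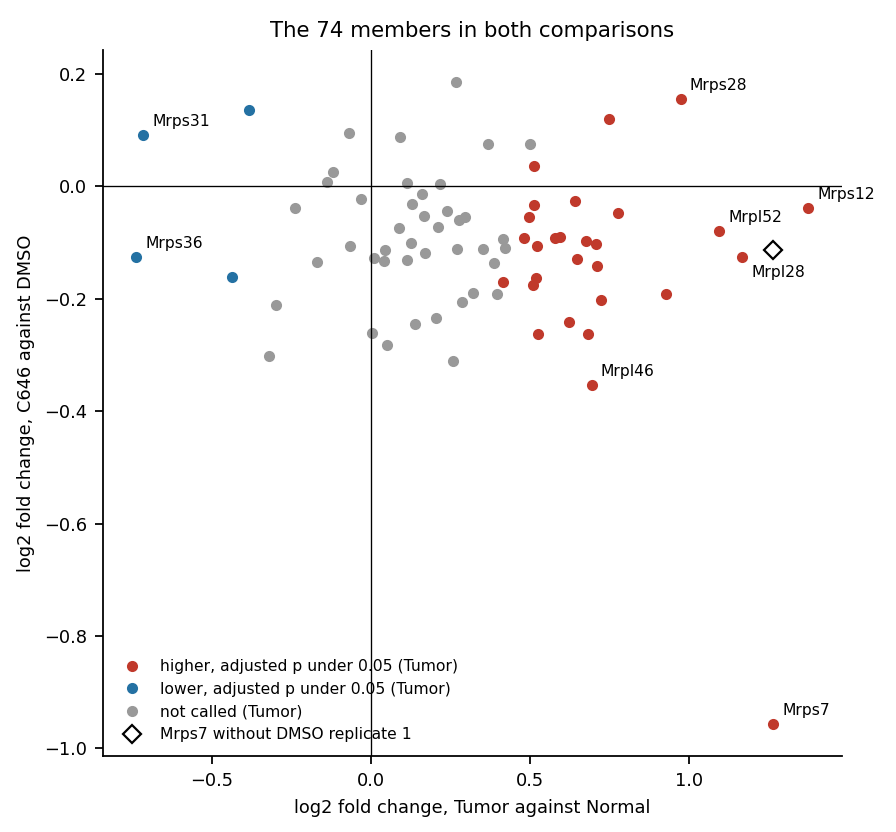
Log2 fold change of the 74 members in Tumor against Normal (x axis) and in C646 against DMSO (y axis), coloured by the call in Tumor. Mrps7 lies apart at 1.27 and -0.96, and the open diamond shows it at -0.11 when DMSO replicate 1 is left out. Pearson's r over the 74 members is -0.22, and -0.06 without Mrps7; members are not independent replicates.

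The genes beside Mrps7 were high in the same single tumors. This was looked for after the values of Mrps7 had been seen. In DMSO replicate 1, a run of 9 adjacent expressed genes from Nup85 to Llgl2 (chr11:115564434-115855780, 291.3 kb) was 4.33-fold to 8.54-fold over the other 2 DMSO tumors. Gga3, a sorting protein of the Golgi whose start faces that of Mrps7, read 106.8, 13.7 and 14.0 FPKM in the 3 DMSO tumors. Grb2, the adaptor that links receptor tyrosine kinases to Ras, read 241.3, 34.9 and 32.5 FPKM, and Llgl2, an epithelial polarity protein, read 190.9, 22.2 and 22.4 FPKM. Each had 1 high and 2 low tumors, as Mrps7 did, and Mif4gd, Caskin2 and Tsen54 also lay in the run.

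The values did not fall back at once outside the run. Nt5c, the expressed gene before it, was 1.34-fold and Recql5, the gene after it, 1.35-fold. Before Nt5c lay Armc7 at 1.63-fold, Kctd2 at 1.59-fold, Atp5h at 1.57-fold, Hid1 at 3.07-fold and Cdr2l at 3.15-fold. Smim5, beside Recql5, read 96.4, 2.68 and 2.47 FPKM. Within 0.25 Mb of the start of Mrps7 the median was 5.49-fold over 13 expressed genes, from 0.25 to 1 Mb away it was 1.17-fold over 31 genes, and beyond 5 Mb on the same chromosome 0.99-fold over 796 genes. Genes over 2-fold numbered 9 of the 13, 5 of the 31 and 46 of the 796. Mrpl38, the next member on the chromosome at 0.53 Mb, was at 0.81-fold in this tumor and outside the run. Part of the closest signal cannot be told apart by gene: exons of Mrps7 overlap annotated exons of Gga3 and Mif4gd, and the promoter windows of Mrps7 and Gga3 share 277 of their 300 bases. The other 6 genes of the run share no exon with Mrps7.

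In Tumor replicate 3 the stretch was wider and lower. A run of 38 adjacent expressed genes that began at Cdc42ep4 was 1.51-fold to 4.59-fold over the other 2 tumors. It held 2 members, Mrps7 at 2.08-fold and Mrpl38, a large-subunit protein, at 1.85-fold. Mrpl38 read 55.0, 62.9 and 58.7 FPKM in Normal and 90.7, 71.3 and 148.9 FPKM in Tumor, and its call in Tumor (log2 fold change 0.75 ± 0.26, limma adjusted p = 0.040) was lost without Tumor replicate 3, at 0.45 with an adjusted p of 0.060. Ict1, in the same stretch, was 2.02-fold over the other tumors. Within 1 Mb of Mrps7 the median was 2.27-fold over 44 genes, from 1 to 5 Mb 1.45-fold over 69 genes and beyond 5 Mb 0.99-fold over 818 genes. Mrpl12, the last member on the chromosome at 4.88 Mb, was at 0.76-fold. The 6 members on the other side, over 18 Mb away, were between 0.80-fold and 0.95-fold. Tumor replicate 2 was low around Mrps7, with medians of 0.49-fold within 1 Mb, 0.73-fold from 1 to 5 Mb and 0.93-fold beyond 5 Mb. In Tumor replicate 1 these medians were 0.88-fold, 0.89-fold and 1.07-fold. Each fold is set against the other 2 tumors, so 1 high tumor lowers the folds of the others.

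**Figure D5:**
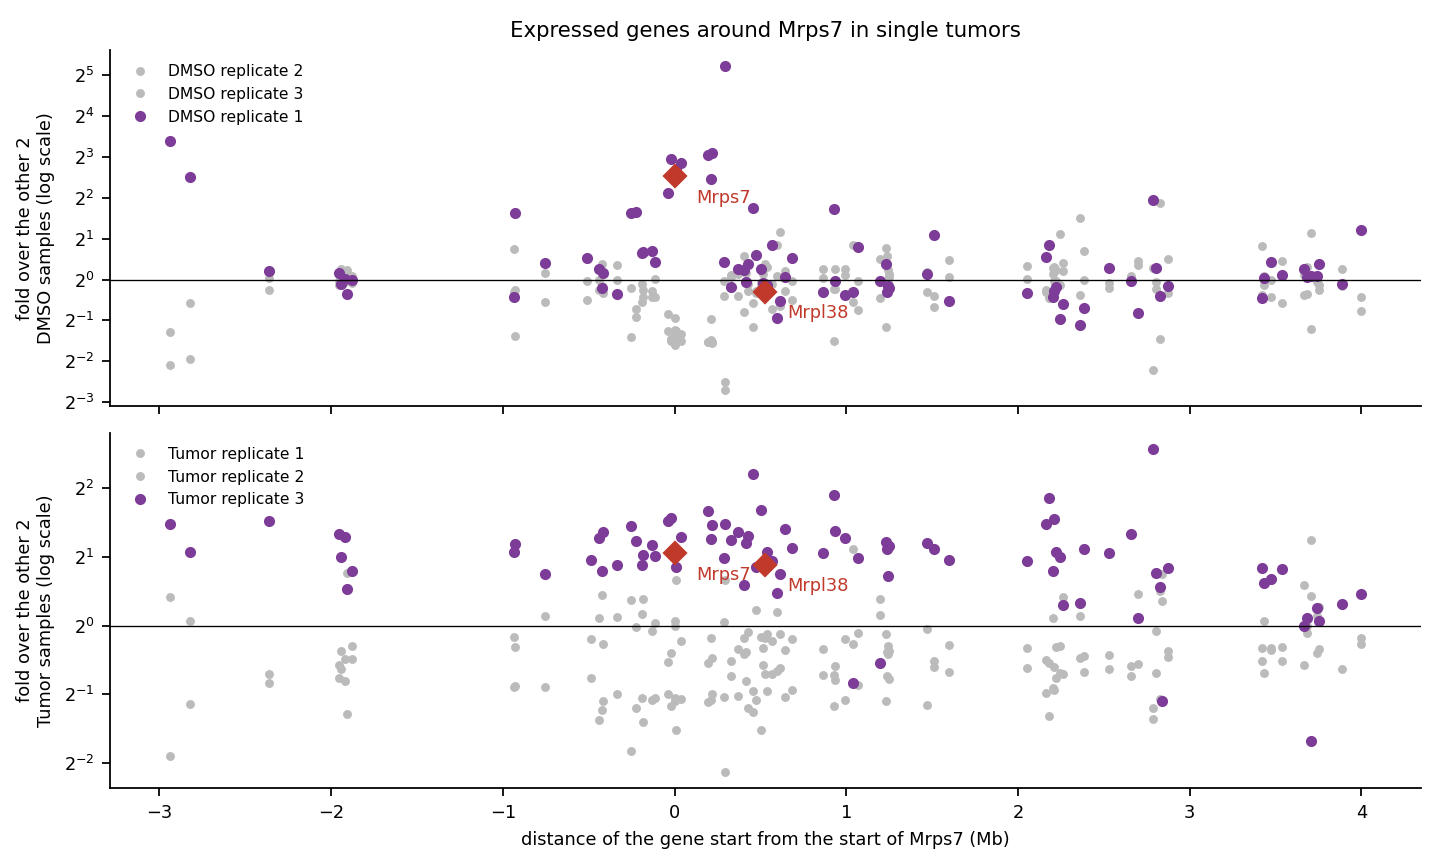
Fold of each expressed gene within 4 Mb of Mrps7 in a tumor over the other 2 tumors of its group (y axis, log scale) against distance from the start of Mrps7 (x axis, Mb). In DMSO replicate 1 (upper panel, purple) a narrow run of 9 genes with Mrps7 lies between 4.33-fold and 8.54-fold; in Tumor replicate 3 (lower panel, purple) a wide run of 38 genes with Mrps7 and Mrpl38 lies above 1.5-fold; grey points are the other replicates.

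A run was sought only where Mrps7 itself was above 1.5-fold, which it was in none of the other 10 samples. Runs there without Mrps7 and runs of low values were not searched for. In the 3 C646 tumors the median within 0.25 Mb was 1.11-fold, 0.95-fold and 1.02-fold. The files give RNA only, so what set these neighbours apart in single tumors was not tested. For Mrps7 the difference between DMSO and C646 cannot be told apart from the difference between DMSO replicate 1 and all other treated tumors.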

How the data were processed

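Poly-A RNA-seq of 12 samples in 4 groups was analysed, with groups and replicate numbers taken from the labels. After trimming, the authors aligned the reads to mm10 by TopHat2 2.1.1 and deposited FPKM per gene from Cufflinks 2.2.1, as per the submitters' processing notes; the library kit did not keep the strand, and the annotation is not given in the sources used here. The number of reads behind each value is not in the tables, so no interval for counting error is given, and the precision rests on the 3 replicates per group. FPKM is no count, and no count test was run.

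Rows without a name (1837 in each Normal and Tumor table) were dropped and FPKM was summed over repeated names, which among the members touched Mrpl10 in the Normal and Tumor tables and Mrpl33 in the DMSO and C646 tables. The main test was limma 3.58.1 (R 4.3.3; lmFit and eBayes, variance trend on) of log2(FPKM + 2^-5). A gene entered it when 3 or more of the 6 samples reached 1 FPKM. P-values were adjusted by Benjamini-Hochberg across every gene that entered, and calls were made under 0.05. Fold changes are on this scale, and a fold is 2 raised to the log2 fold change. Normal and Tumor were fitted apart from DMSO and C646. The scripts were tested on simulated data. Single samples were set against the mean log2 value of the other 2 replicates. GENCODE vM21 gave the gene positions (GRCm38, that is mm10) and RefSeq the promoters. Replicates were labelled as separate samples. The limma p-values set the difference between groups against the spread between replicates, with information on that spread shared over genes. Each Normal replicate pools 3 mice and each Tumor replicate is 1 mouse, so this spread differs in kind between those groups.

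The members and gene lists were chosen with earlier results of these data known, so no test was made over a list. Genes were named by a rule: Mrps7, the 8 called members with the largest change in each direction (or the 5 with the lowest p where fewer than 5 passed), the most and least abundant 3, Mrpl10 and Mrpl12, the Mrps18 paralogs, the 6 subunits with other names, and the 2 genes with the lowest p of other lists. Some neighbours of Mrps7 are not reported here. Those named and all other named genes were chosen after their values were seen.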

Additional observations from a re-analysis of the deposited data

How the results depend on the processing

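Alternatives were pseudocounts of 1 or 2^-2, every gene kept whatever its level, scaling by median ratio, by quantiles or to TPM, a fit without the variance trend, the replicate number as a block, and each sample left out in turn. With TPM scaling the members called higher and lower in Tumor were 13 and 7 and their median log2 fold change was 0.039. Leaving out 1 sample gave 10 to 27 higher calls, 1 to 4 lower calls and medians of 0.23 to 0.44. In C646 against DMSO it gave 0 to 0 calls in either direction, medians of -0.18 to 0.04 and Mrps7 values of -1.49 to -0.11, against 0.91 to 1.62 for Mrps7 in Tumor. Without DMSO replicate 2, 12 of all genes were called lower in C646, none of them a member.

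Same-numbered samples did not deviate together in Normal and Tumor (r = -0.04, -0.10 and 0.01) and only in part in DMSO and C646 (0.17, 0.07 and 0.11), so the numbers were not taken as pairs. With the replicate block 19 members were higher and 2 lower in Tumor, 0 were called in C646, and the medians were 0.29 and -0.10. The members' shares in Tumor were 25.7% higher and 2.7% lower, beside 26.4% and 29.4% of all genes in that fit.

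Over all 74 members, 19 turned direction in Tumor with TPM scaling, 13 with quantile normalization, 1 with median-ratio scaling and 2 to 7 with a sample left out, and none was called on either side. In C646 the numbers were 32, 16, 0 and 2 to 34. Values are given for some, not all, of the members named by the rule that turned. In Tumor they included Mrpl1 (0.0625) and Mrpl49 (-0.0415) with quantile normalization. With TPM scaling they included Mrpl4 (-0.11), Mrpl41 (-0.20), Mrpl49 (-0.16) and Mrps18b (-0.13). In C646 they included Mrpl52 (0.0508) and Mrps21 (0.11) with quantile normalization, and Mrpl10 (0.0201) of the 32 with TPM scaling. Of the 34 that turned without DMSO replicate 3, values are given for 3. Over the samples left out in turn, these 3 ranged from -0.29 to 0.26 for Mrpl12, from -0.20 to 0.22 for Mrpl54 and from -0.23 to 0.082 for Mrps18b, with the highest value without DMSO replicate 3. The cause was not tested. Among the members tracked singly, Mrpl38, Mrpl39 and Mrpl43 lost their call most often, and Mrps7, Mrps12, Mrps28, Mrpl28, Mrpl36, Mrpl52 and Mrps31 kept it in every alternative run.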
